A study of Homo sapiens with 6 samples.

Results

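The cytochrome P450 genes were taken as all genes whose platform symbol is CYP followed by a digit, with pseudogenes left out and with probe sets of a single gene symbol only. This gave 47 genes among the 18132 genes measured, read by 111 probe sets. Transcripts were measured on 1-colour Affymetrix arrays in Huh7, an established human hepatocellular carcinoma cell line in logarithmic growth. There were 3 arrays of control cells and 3 arrays of cells labelled KCa3.1 silenced, and both groups share the cell line, the medium change 1 day before harvest and the growth phase. How the channel was silenced, and what the control cells received, is not given in the sources used here. The labels do not say whether the replicates are separate cultures. The p-values thus rest on the spread among these 6 samples alone, and that spread may be technical. Huh7 is 1 tumour line, and it stands in here for hepatocytes only as far as a line can.

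Cytochromes P450 are haem enzymes that insert an oxygen atom into fat-soluble molecules, with electrons passed on by reductase partners. Members of families 1 to 3 clear drugs and other foreign chemicals in the liver, and members of family 4 mostly hydroxylate fatty acids and eicosanoids. Other families make and break down steroid hormones, bile acids, vitamin D and retinoic acid. Many of these genes are switched on by nuclear receptors or by the aryl hydrocarbon receptor, which sense the substrates of the enzymes.

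Values are log2 expression values centred near 0 for each probe set, and a gene's value is the mean over its probe sets. The centring removes the level of expression, so each value says only whether an array was above or below the centre for that gene. A change is the mean of the silenced-labelled arrays minus the mean of the control arrays on the log2 scale. It passed the test at an adjusted p under 0.05 in limma, with Benjamini-Hochberg adjustment over all 18132 genes.

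Across the whole table, the correlation r lay between 0.406 and 0.67 for arrays that share a label and between -0.273 and 0.068 for arrays that do not, across probe sets, which are not independent replicates. KCNN4, which encodes KCa3.1, did not bear out the label, with a change of -3e-04 (95% interval -0.157 to 0.156, exact permutation p = 1 against a smallest possible 0.1). Directions below are therefore between arrays as labelled. Since levels are not held, the presence or absence of the hepatocyte markers could not be checked, only their changes. Of all 18132 genes limma called 13.3%, 7.14% higher and 6.19% lower. Of 9 measured hepatocyte markers 4 were higher and 1 was lower, and of 5 cholangiocyte markers 0 were higher and 4 were lower. Of 7 fibroblast or stellate markers 1 was higher, of 4 endothelial markers 0 passed in limma (0 also at an unadjusted p under 0.05), and of 4 blood cell markers 1 was higher. The part of these marker changes in the results below was not tested.

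Promoter sequences of RefSeq, 250 bases before to 50 after the gene start, matched 35 of the 47 genes. Those of CYP3A5, CYP2J2 and CYP4F3 are shown because these genes had the largest rises, and those of CYP3A4 and CYP3A7 because they are the neighbours of CYP3A5 that did not pass the test. Capitals mark GCGTG (the core of the site of the aryl hydrocarbon receptor), the nuclear receptor half-site AGGTCA, its variant form AGTTCA, the forkhead site TGTTTAC and the TATA box TATAAA, each searched on both strands. The build is GRCh38.p14, and sequences read 5′ to 3′ on the gene's strand.
CYP3A5, chr7:99679947-99680246 (- strand): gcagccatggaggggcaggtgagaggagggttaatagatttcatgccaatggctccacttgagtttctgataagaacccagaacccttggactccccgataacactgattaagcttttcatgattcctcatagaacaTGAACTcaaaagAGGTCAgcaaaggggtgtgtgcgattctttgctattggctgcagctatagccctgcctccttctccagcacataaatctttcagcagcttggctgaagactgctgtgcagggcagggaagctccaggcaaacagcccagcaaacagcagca
CYP3A4, chr7:99784135-99784434 (- strand): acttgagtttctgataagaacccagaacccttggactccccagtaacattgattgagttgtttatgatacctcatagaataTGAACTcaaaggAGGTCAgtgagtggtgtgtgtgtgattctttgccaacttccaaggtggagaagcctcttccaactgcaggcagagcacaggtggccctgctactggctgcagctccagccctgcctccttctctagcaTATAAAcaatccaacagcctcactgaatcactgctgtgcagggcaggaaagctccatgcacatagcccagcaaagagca
CYP3A7, chr7:99735147-99735446 (- strand): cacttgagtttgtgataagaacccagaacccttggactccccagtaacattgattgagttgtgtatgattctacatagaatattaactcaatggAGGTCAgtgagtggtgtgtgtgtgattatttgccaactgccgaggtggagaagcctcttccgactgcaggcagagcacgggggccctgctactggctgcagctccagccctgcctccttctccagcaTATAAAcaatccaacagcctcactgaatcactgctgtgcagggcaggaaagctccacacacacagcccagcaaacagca
CYP2J2, chr1:59926724-59927023 (- strand): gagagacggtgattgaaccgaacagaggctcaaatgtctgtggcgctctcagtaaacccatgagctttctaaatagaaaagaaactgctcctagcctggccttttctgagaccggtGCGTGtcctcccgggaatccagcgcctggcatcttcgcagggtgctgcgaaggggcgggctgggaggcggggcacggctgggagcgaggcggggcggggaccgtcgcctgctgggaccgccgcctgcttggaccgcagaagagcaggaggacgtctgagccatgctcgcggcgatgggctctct
CYP4F3, chr19:15641062-15641361 (+ strand): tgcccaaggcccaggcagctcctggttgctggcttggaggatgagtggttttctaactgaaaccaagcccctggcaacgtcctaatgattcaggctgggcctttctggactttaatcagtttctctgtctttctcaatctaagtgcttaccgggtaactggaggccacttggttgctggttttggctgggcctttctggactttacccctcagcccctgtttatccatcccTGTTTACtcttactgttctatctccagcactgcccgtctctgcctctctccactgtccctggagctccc

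The windows of CYP3A5 and CYP3A4 both held AGTTCA on the minus strand and, 6 bases further, AGGTCA on the plus strand, the everted repeat through which the pregnane X receptor is known to act on CYP3A4. The gene of that receptor, NR1I2, has no value among the genes measured here. The 18 bases were compared from position 1 at the 5′ end, with CYP3A4 as the reference.
CYP3A4: TGAACTCAAAGGAGGTCA
CYP3A5: TGAACTCAAAAGAGGTCA
CYP3A7: TTAACTCAATGGAGGTCA
CYP3A5 differed by the substitution G11A, which lies between the half-sites. CYP3A7 differed by G2T and A10T, the first of them within the upstream half-site. This everted repeat with its spacer of 6 bases occurred in 3 of 35116 promoters of that length, or 0.00854%, and 2 of those were P450 genes. TATAAA was found in the windows of CYP3A4 and CYP3A7 and not in that of CYP3A5, and 34.3% of the P450 windows and 11.5% of all promoters held it. In a global alignment, counted over all columns with gaps included, the CYP3A4 and CYP3A7 windows were 93.7% identical. The CYP3A5 window matched CYP3A4 in 207 of 359 columns (57.7%) and CYP3A7 in 204 of 358 (57%). Each window has 300 bases, so many of these columns are gaps. The everted repeat starts at base -113 in the CYP3A5 window and at -169 in that of CYP3A4, so the windows are offset. These shares therefore understate the identity of the bases that were aligned. GCGTG was present in the CYP2J2 window, in 25.7% of the P450 windows and in 36.5% of all promoters. TGTTTAC was present in the CYP4F3 window, in 8.57% of the P450 windows and in 3.42% of all promoters. The half-site AGGTCA was in 11 of the 35 P450 windows (31.4%) and in 13.8% of all promoters. AGTTCA, read on the minus strand in the CYP3A4 and CYP3A5 windows, was in 4 P450 windows (11.4%) and in 10.4% of all promoters.

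Of the 47 P450 genes 7 changed, 5 of them higher and 2 lower in the silenced-labelled arrays. CYP3A5, CYP2J2 and CYP4F3 rose most, CYP39A1 and CYP4F12 rose less, and CYP1B1 and CYP26B1 fell. The 7 genes make up 14.9% of the P450 genes, close to the 13.3% called among all genes tested, so their number does not set the P450 genes apart. The shares higher and lower were 10.6% and 4.26%, beside 7.14% and 6.19% of all genes. The median change was 0.014, beside -0.006 over all genes, and it was -0.019 without control replicate 3. At least 1.5-fold changes passed the test in 4 P450 genes, or 8.51%, beside 2.51% of all genes. These were 3 higher genes, beside 1.45% of all genes, and 1 lower gene, beside 1.06%. Silenced-labelled and control arrays were fully apart in 16 of the 47 genes, or 34%, beside 29.3% of all genes. Changes under 0.2 in size on the log2 scale were measured in 38 of the 47 genes, or 80.9%, beside 81.7% of all genes.

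**Figure D1:**
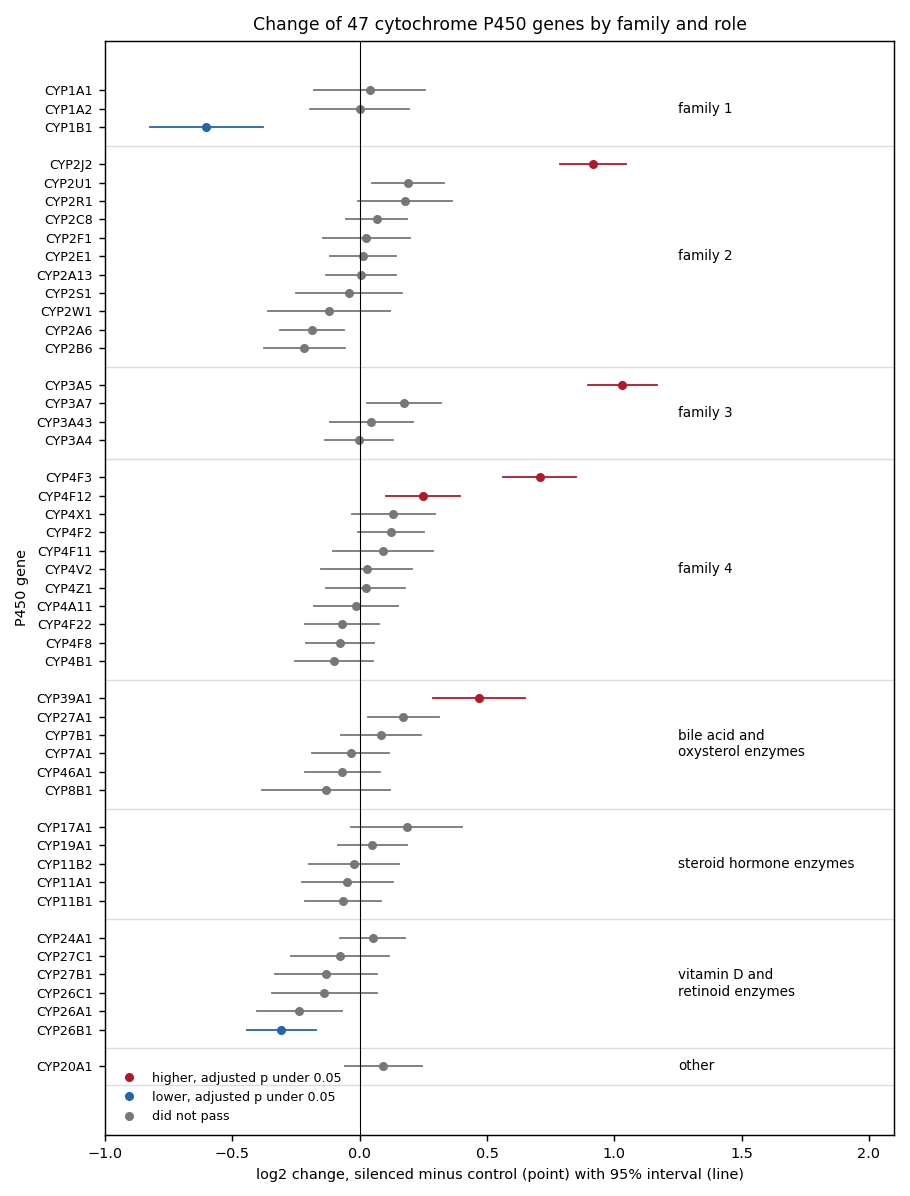
Log2 change between silenced-labelled and control arrays (x axis; point, with its 95% interval as a line) of the 47 P450 genes (y axis), grouped by family and role; red genes were higher and blue genes lower at a limma adjusted p under 0.05. CYP3A5, CYP2J2 and CYP4F3 lie farthest to the right and CYP1B1 farthest to the left, while 38 of the 47 genes lie within 0.2 of no change.

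Family 1 holds the enzymes induced by the aryl hydrocarbon receptor, which turn polycyclic aromatic compounds into reactive products. CYP1B1, which also hydroxylates oestradiol, was lower in the silenced-labelled arrays. CYP1B1 stood at 0.31, 0.056 and 0.37 in control and at -0.51, -0.26 and -0.29 in silenced-labelled arrays. Control replicate 2 was the lowest control array, and all control arrays lay above all silenced-labelled arrays. CYP1B1 fell by 0.60 (SE 0.098, limma adjusted p = 0.0037), which is 1.52-fold. All 5 of its probe sets had a change below 0, from -0.99 to -0.20, and 3 of them passed the test. The names of all 5 end in _s_at, which marks probes that can match more than 1 transcript, of the same gene or of others. CYP1A1, the classical target of the aryl hydrocarbon receptor, had values of 0, 0.10 and 0.12 in control and 0.23, -0.12 and 0.23 in silenced-labelled arrays. The groups overlapped, with silenced replicate 2 the lowest of the 6 arrays, and the change was 0.038 (95% interval -0.18 to 0.26, limma adjusted p = 0.87). CYP1A2, the hepatic enzyme that clears caffeine, had a change of 1e-04 (95% interval -0.194 to 0.194). The change of CYP1B1 was 0.64 below that of CYP1A1 and 0.60 below that of CYP1A2, a description with no test, since CYP1B1 was taken for its change. Of the 3 family 1 genes 0 rose, 1 fell and 2 stayed short of the threshold, with a median change of 0. With 1 called gene the share was 33.3%, beside 13.3% of all genes.

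Family 2 holds many drug-metabolising P450 enzymes. CYP2J2, which turns arachidonic acid into epoxyeicosatrienoic acids, was the one member of 11 that passed. Its values were -0.37, -0.35 and -0.48 in control and 0.53, 0.53 and 0.48 in silenced-labelled arrays. The gap between the groups was wide against the spread within them, which was 0.068 and 0.031 (SD, n = 3 each). CYP2J2 was 1.89-fold higher (change 0.92, SE 0.057, limma adjusted p = 2e-05). It was read by 1 probe set, of the kind whose name ends in _a_at.

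The drug-metabolising members of family 2 did not pass the test. CYP2B6, which metabolises efavirenz and bupropion, had values of 0.22, 0.19 and 0.056 in control and -0.17, -0.015 and 0 in silenced-labelled arrays. The control arrays lay above the others without overlap, but the change of -0.22 (SE 0.070) had a limma adjusted p = 0.081. CYP2A6, the nicotine oxidase, had values of 0.12, 0 and 0.073 in control and -0.13, -0.12 and -0.11 in silenced-labelled arrays. Here too the groups did not overlap, and the change was -0.19 (SE 0.055, limma adjusted p = 0.058). The adjusted p of CYP2A6 was 0.043 with the arrays quantile-normalized again and 0.047 with the arrays scaled to one standard deviation. CYP2A6 lies beside close relatives in sequence and was read by 1 probe set whose probes can match other transcripts, so its value is uncertain.

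CYP2C8, which oxidises paclitaxel, had a change of 0.066 (95% interval -0.053 to 0.18), and CYP2E1, the ethanol-inducible enzyme, one of 0.014 (95% interval -0.115 to 0.143). Both intervals lie within 0.2 of no change, but they cover the centred values. Signal over background is unknown for these probe sets, so a larger change of the transcripts is not excluded. CYP2R1, a vitamin D 25-hydroxylase, had values of -0.33, -0.087 and -0.079 in control and 0.10, 0 and -0.066 in silenced-labelled arrays. Control replicate 1 was far below the other control arrays, and the change was 0.18 (SE 0.081, limma adjusted p = 0.22), or 0.094 without that array. CYP2U1, which hydroxylates long-chain fatty acids, had a change of 0.19 (limma adjusted p = 0.086), and 1 of its 6 probe sets passed on its own. The other members, CYP2A13, CYP2F1, CYP2S1 and CYP2W1, had changes between -0.12 and 0.025. The family 2 counts were 1 higher, 0 lower and 10 not passed, with a median change of 0.014. The share called was 9.09%, beside 13.3% of all genes.

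Family 3 holds the CYP3A enzymes, which metabolise a large share of medicines. CYP3A5, the polymorphic adult form, had the largest rise of all 47 genes, while CYP3A4, the main adult form, and CYP3A7, the fetal form, did not pass. The CYP3A5 values were -0.71, -0.75 and -0.75 in control and 0.31, 0.37 and 0.21 in silenced-labelled arrays. All silenced-labelled arrays lay far above all control arrays, and the control arrays were nearly alike. CYP3A5 was 2.04-fold higher (change 1.03, SE 0.059, 95% interval 0.90 to 1.17, limma adjusted p = 1.3e-05), and its 3 probe sets passed singly with changes from 0.80 to 1.19.

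CYP3A4 had values of -0.056, -0.036 and 0.081 in control and 0.028, -0.0097 and -0.041 in silenced-labelled arrays. The groups overlapped, and the change was -0.0037 (95% interval -0.137 to 0.13, limma adjusted p = 0.98). CYP3A7 had values of -0.062, -0.15 and -0.23 in control and -0.033, 0.094 and 0.023 in silenced-labelled arrays. Its groups did not overlap, but the change of 0.17 (SE 0.064) had a limma adjusted p = 0.12. CYP3A43 had a change of 0.046 (95% interval -0.119 to 0.211).

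The 4 CYP3A genes lie side by side on chromosome 7, with the order CYP3A5, CYP3A7, CYP3A4 and CYP3A43 among genes measured here. The change of CYP3A5 exceeded that of CYP3A4 by 1.03, that of CYP3A7 by 0.86 and that of CYP3A43 by 0.98. CYP3A5 was taken for its change, so these differences are a description with no test. The family 3 counts were 1 higher, 0 lower and 3 not passed, with a median change of 0.11. With 1 called gene the share was 25%, beside 13.3% of all genes. CYP3A genes are close in sequence. Of the 3 probe sets of CYP3A5 1 has a name ending in _x_at, which marks probes that can match other genes, and 2 have names ending in _a_at, which marks probes shared by transcripts of 1 gene. These 2 had changes of 0.80 and 1.19.

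**Figure D2:**
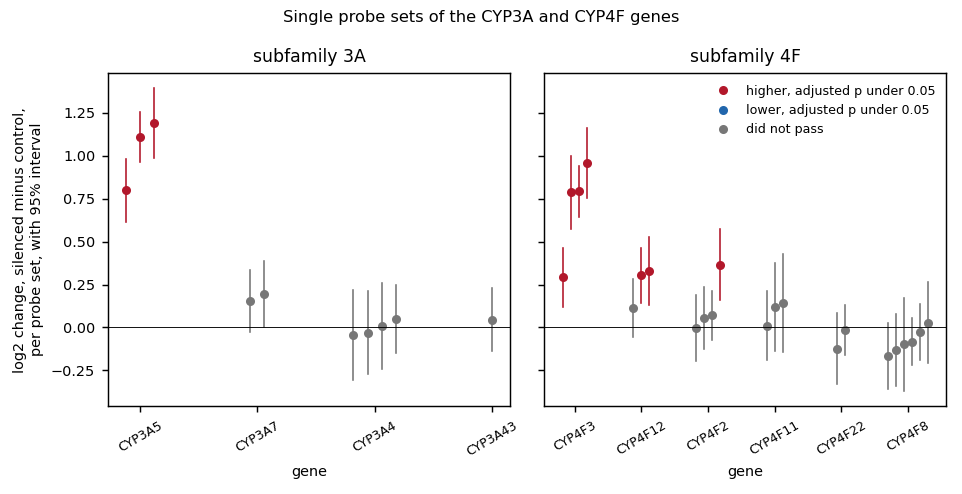
Log2 change between silenced-labelled and control arrays (y axis) of each probe set (point, with its 95% interval as a line) of the CYP3A genes (left) and the CYP4F genes (right); red points passed the test over all probe sets at an adjusted p under 0.05. All 3 probe sets of CYP3A5 and all 4 of CYP4F3 passed, while 0 of the 4 of CYP3A4 and 1 of the 4 of CYP4F2 did.

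Family 4 adds a hydroxyl group near the end of fatty acid chains. CYP4F3, which inactivates the inflammatory lipid leukotriene B4, rose, and so did CYP4F12, an enzyme of arachidonic acid and of some antihistamines. The CYP4F3 values were -0.57, -0.67 and -0.61 in control and 0.12, -0.011 and 0.16 in silenced-labelled arrays. The groups were far apart, and CYP4F3 was 1.63-fold higher (change 0.71, SE 0.064, limma adjusted p = 0.00015). All 4 of its probe sets passed, with changes from 0.29 to 0.96.

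CYP4F12 had values of -0.028, -0.16 and -0.22 in control and 0.082, 0.15 and 0.11 in silenced-labelled arrays. The groups did not overlap, with control replicate 1 nearest to the other group, and the change was 0.25 (SE 0.064, limma adjusted p = 0.033). Leaving out control replicate 2 gave a limma adjusted p of 0.1 and leaving out control replicate 3 one of 0.12. Leaving out silenced replicate 1, 2 or 3 gave 0.066, 0.11 or 0.097. The call held only when control replicate 1 was the array left out, and it was also lost with the most variable probe set in place of the mean (limma adjusted p = 0.051).

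CYP4F2, the vitamin K1 and fatty acid hydroxylase, had values of -0.051, -0.025 and -0.14 in control and 0.032, 0.015 and 0.11 in silenced-labelled arrays. The change was 0.12 (SE 0.058, limma adjusted p = 0.24), although 1 of its 4 probe sets passed with a change of 0.37. With that probe set, the most variable one, in place of the mean, the limma adjusted p of CYP4F2 was 0.039. Its name ends in _x_at, so its probes can match other genes, and the one CYP4F2 probe set named _a_at had a change of 0.055. CYP4F11, CYP4F22 and CYP4F8 had changes of 0.091, -0.069 and -0.079 and did not pass. The change of CYP4F3 exceeded that of CYP4F2 by 0.58, that of CYP4F11 by 0.62 and that of CYP4F12 by 0.46, again a description of a gene taken for its change.

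CYP4A11, a target of the fatty acid sensor PPAR alpha, had a change of -0.015 (95% interval -0.18 to 0.152). CYP4B1, CYP4V2, CYP4X1 and CYP4Z1 had changes between -0.10 and 0.13. Outside subfamily 4F, limma called 0 of 5 genes of family 4 (0 also at an unadjusted p under 0.05), with a median change of 0.023, and the 6 genes of subfamily 4F had a median of 0.107. In family 4 as a whole 2 of 11 genes rose, 0 fell and 9 did not pass, with a median change of 0.028. The share called was 18.2%, beside 13.3% of all genes.

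**Figure D3:**
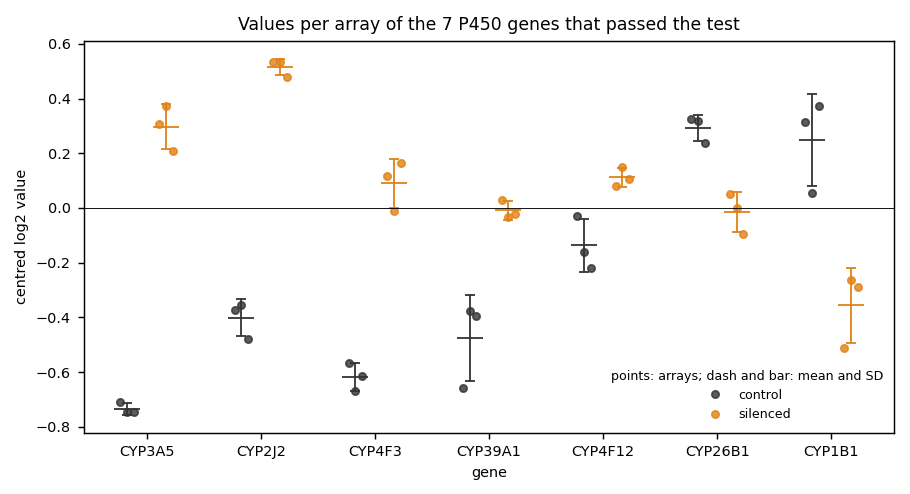
Centred log2 value (y axis) of each array for the 7 P450 genes that passed the test (x axis); dark points are control and orange points silenced-labelled arrays, and dash and bar give mean and SD over 3 arrays. The groups do not overlap for any of the 7 genes, and the gap is widest for CYP3A5 and narrowest for CYP4F12.

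Bile acids are made from cholesterol by 2 routes, one opened by CYP7A1 and the other by CYP27A1 and CYP7B1, while CYP39A1 acts on the oxysterol 24-hydroxycholesterol. CYP39A1 rose, and the enzymes of both main routes did not pass the test. The CYP39A1 values were -0.66, -0.38 and -0.39 in control and 0.030, -0.033 and -0.023 in silenced-labelled arrays. Control replicate 1 was the lowest, and no control array reached the silenced-labelled arrays. CYP39A1 was 1.38-fold higher (change 0.47, SE 0.080, limma adjusted p = 0.0047), and 2 of its 3 probe sets passed, with changes of all 3 between 0.41 and 0.53.

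CYP7A1, the rate-limiting enzyme of bile acid synthesis, had values of 0.037, -0.061 and 0.10 in control and -0.099, 0.051 and 0.022 in silenced-labelled arrays. The groups overlapped, and the change was -0.035 (95% interval -0.186 to 0.116, limma adjusted p = 0.83). CYP27A1 had values of 0, 0 and -0.15 in control and 0.13, 0.086 and 0.15 in silenced-labelled arrays. Those groups did not overlap, and the change was 0.17 (SE 0.061, limma adjusted p = 0.11). CYP8B1, which sets the amount of cholic acid, had a change of -0.13 (95% interval -0.38 to 0.118), with arrays of either label on both sides of 0. CYP7B1 had a change of 0.083 and CYP46A1, the cholesterol 24-hydroxylase of brain, one of -0.068.

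The change of CYP39A1 exceeded that of CYP7A1 by 0.50, that of CYP7B1 by 0.38, that of CYP8B1 by 0.60 and that of CYP27A1 by 0.30, given with no test for the same reason. Of the 6 bile acid and oxysterol enzymes 1 rose, 0 fell and 5 stayed short of the threshold, with a median change of 0.024. The share called was 16.7%, beside 13.3% of all genes.

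The steroid hormone enzymes act mainly in adrenal gland, gonad and placenta. Of the 5 measured 0 passed, beside 13.3% of all genes, and 5 genes are too few for that count to set them apart. At an unadjusted p under 0.05 limma counted 0 of them too, and the share of all genes at that level is not given here. CYP17A1, which makes androgen precursors, had values of 0, 0.054 and -0.31 in control and 0.023, 0.19 and 0.091 in silenced-labelled arrays. The low control replicate 3 stood apart, and the change was 0.18 (SE 0.096, limma adjusted p = 0.29), or 0.073 without that array. CYP11A1, which opens steroid synthesis in mitochondria, had a change of -0.049 (95% interval -0.23 to 0.13), and CYP19A1, the aromatase, one of 0.050 (95% interval -0.085 to 0.18). CYP11B1 and CYP11B2, the final enzymes of cortisol and aldosterone synthesis, had changes of -0.066 and -0.023. The median over the 5 genes was -0.023. CYP21A2, CYP51A1 and CYP2D6 have only probe sets with several symbols here and are not analysed.

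Among the enzymes of vitamins, the 3 CYP26 genes, which degrade retinoic acid, had changes below 0, as had 9458 of all 18132 genes. Of these 3 only CYP26B1 passed the test. CYP26B1 fell, with values of 0.33, 0.32 and 0.24 in control and 0.052, -7e-04 and -0.094 in silenced-labelled arrays. The groups did not overlap, and CYP26B1 fell by 0.31 (SE 0.060, limma adjusted p = 0.0096). Its 2 probe sets differed, one with a change of -0.53 that passed and the other with a change of -0.086 that did not. CYP26A1, the retinoic acid-induced form in liver, had values of 0.15, 0.23 and 0 in control and -0.031, -0.18 and -0.12 in silenced-labelled arrays. The control arrays lay above the others, and the change was -0.24 (SE 0.073, limma adjusted p = 0.069), which passed at -0.30 (limma adjusted p = 0.037) without control replicate 3. CYP26C1, whose groups overlapped, had a change of -0.14 (limma adjusted p = 0.42). CYP24A1, which inactivates vitamin D, had a change of 0.051 (95% interval -0.077 to 0.178), CYP27B1, which activates it, one of -0.13, and CYP27C1, a retinoid desaturase of skin, one of -0.077. Over these 6 genes 0 rose, 1 fell and 5 stayed short of the threshold, with a median change of -0.136. The share called was 16.7%, beside 13.3% of all genes. CYP20A1, whose substrate is unknown, had a change of 0.092.

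Calls were set beside the order of the genes in the genome. Of all genes 13.3% were called, so in groups of 4 or 5 genes a count of 0 does not set a group apart. The share of all genes at an unadjusted p under 0.05 is not given here. Of the 5 neighbouring family 2 genes on chromosome 19, from CYP2A6 to CYP2S1, limma called 0 at the adjusted threshold (2 at an unadjusted p under 0.05, CYP2A6 and CYP2B6). Of the 4 neighbouring family 4 genes on chromosome 1, from CYP4B1 to CYP4Z1, limma called 0 (0 also unadjusted). In the CYP4F group of chromosome 19 CYP4F3 and CYP4F12, which passed, are neighbours of CYP4F8 and CYP4F22, which did not.

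P450 enzymes of the endoplasmic reticulum take electrons from POR and from cytochrome b5, and those of mitochondria from FDX1. POR had a change of 0.15 (limma adjusted p = 0.17), and FDX1 also one of 0.15 (limma adjusted p = 0.17). CYB5A, the cytochrome b5 of the endoplasmic reticulum, fell by 0.36 (SE 0.071, limma adjusted p = 0.010), and its reductase CYB5R3 fell by 0.36 (SE 0.074, limma adjusted p = 0.012). The limma adjusted p of CYB5R3 was 0.052 without control replicate 2 and 0.11 with its most variable probe set in place of the mean. CYB5R1 rose by 0.29 (limma adjusted p = 0.019), and its limma adjusted p moved to between 0.054 and 0.077 when control replicate 1, control replicate 3 or silenced replicate 3 was dropped, and it was 0.053 with the most variable probe set. Of 8 measured redox partners 1 rose, 2 fell and 5 stayed short of the threshold, which is 37.5% called beside 13.3% of all genes, with a median change of -0.005.

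Haem is the cofactor of every P450 enzyme. ALAS1, the rate-limiting enzyme of haem synthesis in liver, had values of 0.19, 0.36 and 0.27 in control and -0.0081, -0.062 and 0.033 in silenced-labelled arrays. It fell by 0.29 (SE 0.062, limma adjusted p = 0.016), and its limma adjusted p rose to 0.056 when control replicate 2 was dropped and to 0.062 when silenced replicate 2 was. The biliverdin reductase genes BLVRB and BLVRA, which act after haem is broken down, fell by 0.48 and fell by 0.37, and UROS, an enzyme of haem synthesis, rose by 0.29. The call of BLVRA was lost without silenced replicate 2 (limma adjusted p = 0.05). That of UROS was lost without control replicate 1 or silenced replicate 2 or 3 (limma adjusted p from 0.061 to 0.1). It was also lost in the fit of the most variable probe set per gene (limma adjusted p = 0.062). UROS was read by 1 probe set, so its own values were the same there and only the fit over all genes differed. Of 12 measured genes 1 rose, 3 fell and 8 stayed short of the threshold, which is 33.3% called beside 13.3% of all genes.

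Among 28 measured regulators of P450 genes 6 rose, 3 fell and 19 stayed short of the threshold, which is 32.1% called beside the 13.3% of all genes, and the list was chosen with earlier results known. FOXA1, a forkhead factor of liver, had values of -0.53, -0.43 and -0.45 in control and 0.26, 0.23 and 0.082 in silenced-labelled arrays, and rose by 0.66 (SE 0.065, limma adjusted p = 0.00024). PPARGC1A, a coactivator of fasting genes, rose by 0.57 (SE 0.061, limma adjusted p = 0.00039). NR3C1, the glucocorticoid receptor, had values of 0.14, -0.055 and 0.21 in control and -0.39, -0.47 and -0.57 in silenced-labelled arrays, and fell by 0.57 (SE 0.081, limma adjusted p = 0.0018). RORA, a nuclear receptor of the clock, fell by 0.54 (SE 0.097, limma adjusted p = 0.0062). One of the 6 rises, that of the bile acid regulator NR5A2 (change 0.23, limma adjusted p = 0.039), was lost whichever array was left out, with limma adjusted p from 0.061 to 0.13.

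Outside the naming rule and chosen after its values were seen, AHR, the aryl hydrocarbon receptor that regulates CYP1B1, had values of 0.45, 0.20 and 0.43 in control and 0.074, -0.0069 and -0.016 in silenced-labelled arrays. AHR fell by 0.34 (SE 0.075, limma adjusted p = 0.017), and dropping any 1 of control replicates 1 and 3 and silenced replicates 2 and 3 moved its limma adjusted p to between 0.053 and 0.068. Of 5 measured other AHR target genes, AHRR among them, 1 rose, 0 fell and 4 stayed short of the threshold. That is 20% called, beside 13.3% of all genes. NQO1, a quinone reductase, rose by 0.26 (limma adjusted p = 0.011, and 0.054 without silenced replicate 3), whereas TIPARP, with a change of -0.33, had a limma adjusted p = 0.055.

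The constitutive androstane receptor gene NR1I3 and the fatty acid sensor gene PPARA had changes of -0.06 and -0.02 and did not pass. The retinoid receptor gene RXRA, with a change of 0.04, did not pass either.

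Among the other enzymes of bile acid synthesis both a rise and a fall of over 1 on the log2 scale were measured. SLC27A2, which activates fatty acids and bile acid precursors, had values of -0.52, -0.67 and -0.68 in control and 0.76, 0.75 and 0.93 in silenced-labelled arrays, and was 2.7-fold higher (limma adjusted p = 7.2e-06). BAAT, which joins bile acids to glycine or taurine, had values of 1.08, 1.20 and 1.24 in control and -7e-04, 0 and -0.0056 in silenced-labelled arrays, and was 2.26-fold lower (limma adjusted p = 7.2e-06). ABCD3, a peroxisomal transporter, rose by 0.92 and AKR1C4, a hydroxysteroid dehydrogenase, by 0.65. The change of ABCD3 was 0.25 with a limma adjusted p = 0.38 when only probe sets specific to 1 transcript were kept. Of 11 measured genes 3 rose, 2 fell and 6 stayed short of the threshold, which is 45.5% called beside 13.3% of all genes. The second fall was that of ACOX2, a peroxisomal oxidase (change -0.32, limma adjusted p = 0.018). Its limma adjusted p was 0.068 when control replicate 2 was dropped, 0.054 for control replicate 3, 0.072 for silenced replicate 2 and 0.077 for silenced replicate 3. The ligand FGF19, which holds back CYP7A1, and its receptor genes FGFR4 and KLB had changes of -0.24, -0.15 and -0.10, and 0 of the 3 passed in limma (2 at an unadjusted p under 0.05).

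Among 11 other steroid hormone enzymes 1 rose, 1 fell and 9 stayed short of the threshold. That is 18.2% called, beside 13.3% of all genes. HSD11B2, which inactivates cortisol, had values of -1.08, -0.87 and -0.86 in control and 0, -0.059 and 0.079 in silenced-labelled arrays, and was 1.92-fold higher (limma adjusted p = 7.2e-05). STS, the steroid sulfatase gene, fell by 0.32 (limma adjusted p = 0.0074, and 0.051 with its most variable probe set). Among 13 other retinoid genes 3 rose, 0 fell and 10 stayed short of the threshold, which is 23.1% called beside 13.3% of all genes. ALDH1A1, which oxidises retinal, rose by 0.64 (limma adjusted p = 8.5e-05), and the retinoid dehydrogenase genes RDH10 and RDH11 rose by 0.52 and 0.29.

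**Figure D4:**
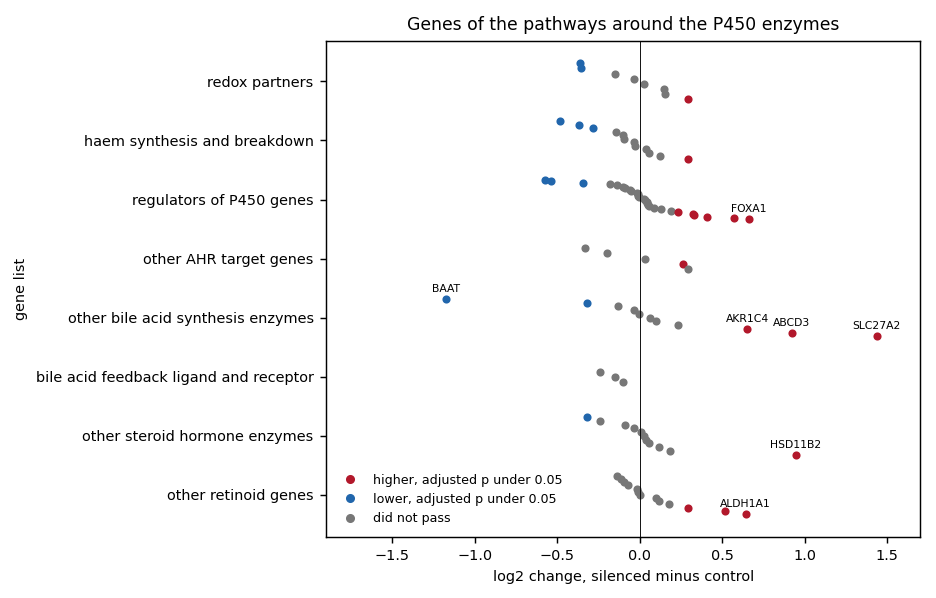
Log2 change between silenced-labelled and control arrays (x axis) of each measured gene (point) of 8 lists of genes that work with the P450 enzymes (y axis); red genes were higher and blue genes lower at a limma adjusted p under 0.05. SLC27A2 and BAAT, both of bile acid synthesis, lie farthest from no change, at 1.43 and -1.18.

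At the level of single probe sets, limma called 14 of the 111 P450 probe sets higher and 4 lower, and 93 missed the threshold, with adjustment over 49293 probe sets. These are 12.6% and 3.6%, beside 5.82% higher and 4.85% lower of all probe sets. Probe sets of 1 gene are repeat readings and not separate members. CYP3A5 gave 3 and CYP4F3 gave 4 of the 14 higher ones, and CYP1B1 gave 3 of the 4 lower ones. By gene, 14.9% of the P450 genes passed, beside 13.3% of all genes. Of the 111 probe sets 85 have names ending in _a_at, _s_at or _x_at, which mark probes that can match more than 1 transcript, of the same gene or of others. An exact 0 on at least 1 of the 6 arrays was listed for 80.2% of the P450 probe sets and on 2 or more arrays for 25.2%.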

How the data were processed

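Per the submitters' processing notes the authors made the values with RMA, which corrects background, normalizes arrays by quantiles and summarises probes; no version is given. The deposited log2 values lie near 0, so they appear to be centred per probe set; the log base is RMA's usual one, and how they were centred is not given in the sources used here. Of 49395 probe sets, 102 control probe sets were left out. The platform annotation gave 44988 probe sets 1 symbol, 1832 several and 2473 none here; 0 symbols needed updating through RefSeq (GRCh38.p14).

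Probe sets with 1 symbol were averaged per gene, which left 18132 genes with no filter on low values. All 6 arrays were fitted with limma 3.58.1 in R 4.3.3 (lmFit, eBayes), with group as the only term. The functions were tested on simulated data. KCNN4 was also compared by an exact permutation test, two-sided. The number of arrays limits the precision.

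Named were all P450 genes past the threshold or with a change of at least 0.3, well-known P450 genes whatever their values, and up to 4 called genes of each related list; values of further genes were chosen for print after they were seen. Members and lists were chosen with earlier results of these data known. Promoters came from RefSeq (GRCh38.p14) and were aligned with Biopython 1.88 (match 1, mismatch -1, gap opening -4, gap extension -0.5). Genes were counted as neighbours when at most 5 protein-coding ranks apart in RefSeq.

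Alternatives were other choices of probe sets, renewed quantile normalization, arrays scaled to one standard deviation, a replicate block, robust empirical Bayes, a fold minimum of 1.5 and leaving out each array.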

Additional observations from a re-analysis of the deposited data

How the results depend on the processing

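Of 27 named P450 genes, each of the 7 called ones kept an adjusted p under 0.05 in every alternative that could be run for it, except CYP4F12, and CYP26A1, CYP2A6 and CYP4F2 passed under 1 or 2 alternatives each. Over probe sets specific to 1 transcript, 18 P450 genes could be tested and 1 passed, CYP4F3, with 1 higher and 0 lower, and 565 of 8354 genes passed in all. The 6 other called P450 genes had no such probe set. With at least 1.5-fold asked for, 4 P450 genes passed, 3 higher and 1 lower. Leaving out single arrays gave 6 to 7 P450 genes, 4 to 5 higher and 2 to 3 lower, 1641 to 2289 genes in all and a median P450 change of -0.019 to 0.023. Group medians are less firm. Leaving out single arrays moved that of family 1 between -0.067 and 0.037, family 2 between -0.032 and 0.043, the bile acid and oxysterol enzymes between -0.007 and 0.053 and the steroid hormone enzymes between -0.066 and 0.023, so the sign of these 4 turned. It moved that of family 3 between 0.086 and 0.141, family 4 between 0.021 and 0.072 and the vitamin D and retinoid enzymes between -0.219 and -0.095. The other alternatives gave ranges of -0.063 to 0.109, 0.003 to 0.092, -0.035 to 0.044, -0.023 to 0.009, 0.01 to 0.175, -0.004 to 0.092 and -0.182 to -0.058 in the same order, some over 1 to 5 genes. The cause of these moves was not tested.

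The labels' replicate numbers did not pair the arrays: deviations from the group means of same-numbered arrays correlated with r of -0.036, -0.058 and -0.029. Arrays of unlike numbers gave r of 0.305 for control 3 with silenced 1 and 0.311 for control 1 with silenced 2. Control 2 with silenced 3 gave 0.354, and the remaining pairs lay between -0.306 and -0.248. Whether the arrays pair in that other order was not tested, and the replicate block uses the label numbers. With the replicate number as a block, 6 P450 genes passed, 4 higher and 2 lower, and 2065 genes in all. Among named P450 genes CYP4F12 alone lost its call under the block (limma adjusted p = 0.064). Each group has 3 arrays and signal over background is unknown, since the levels were removed by centring; a P450 gene that did not pass is not shown to be unchanged.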

Other observations

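Transcripts named after P450 genes but left out of the counts did not pass the test. The pseudogenes CYP2B7P, CYP4F24P and CYP4Z2P had log2 changes of 0.12, 0.12 and -0.0079. The read-through transcript CYP3A7-CYP3A51P had a change of 0.024 (SE 0.079, limma adjusted p = 0.9). The antisense gene CYP51A1-AS1 had values of 0, 0.029 and 0 in control and 0.14, 0.15 and 0.16 in silenced-labelled arrays, with no overlap and a change of 0.14 (SE 0.050, limma adjusted p = 0.11). A further 18 probe sets carry several symbols with at least 1 P450 gene among them. Of these, 4 rose, 0 fell and 14 stayed short of the threshold, with changes from -0.12 to 0.56. Of all probe sets 5.82% were higher and 4.85% lower.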
